A study of Mus musculus with 4 samples.

Results

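Macrophages that carry Mrc1, the mannose receptor also known as CD206, and Pf4, the chemokine CXCL4, were described among single cells sorted from mouse brains with lung cancer metastases. A well of a plate labelled BMDM was counted as an Mrc1 Pf4 well when the 4 gate genes Mrc1, Pf4, Cbr2 (a carbonyl reductase) and Folr2 (folate receptor beta) summed to at least 3 counts. The well also had to hold at least 1000 counts outside the ERCC spike-in and mitochondrial rows and an ERCC share under 50%. Wells with 2 or more counts of Cd209a and Cd7, 3 or more of Ccr7, Ccl22 and Cacnb3, or 2 or more of Xcr1, Clec9a and Itgae were left out as dendritic-type wells. This gave 176 of the 496 kept wells of both BMDM plates, out of 804 kept wells in the series. The wells were thus chosen by counts of these 12 genes, and their values are given as a description only.

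The wells came from 161 of 262 kept wells of the BMDM plate with whole-brain radiation therapy (WBRT) and 15 of 234 kept wells of the BMDM plate without WBRT. WBRT was given as 5x2 Gy with the mark d3 per the labels, and the tumor stage label reads "not stratified" with WBRT and "small" without it. The other 2 plates held microglia with and without WBRT. All mice were Balb/C athymic nude animals, strain code CAnN.Cg-Foxn1nu/Crl, a strain that carries the nude allele of Foxn1 and lacks a thymus, so mature T cells are largely missing from every group. Each group was 1 plate, the number of mice behind it is not given in the sources used here, and treatment, plate and tumor stage label cannot be told apart.

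Macrophages of the meninges, the perivascular space and the choroid plexus are known for Mrc1, Pf4, Cbr2 and Folr2, and they take up glycoproteins, lipoproteins and cell debris through scavenger receptors. Monocytes that enter the brain from the blood carry the chemokine receptor Ccr2, and the macrophages they form can take on scavenger genes while they lose monocyte genes. Microglia, the resident macrophages of the brain tissue itself, are known by P2ry12, Tmem119 and Sall1.

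The promoters of 4 genes on which the gate, its check and the split below turn are shown for reference, as RefSeq's GRCm38.p6 table gives them: Mrc1 and Pf4 from the gate, Stab1 as a scavenger receptor outside it, and Ccr2. Each line runs 5′ to 3′ on the gene's strand over 300 bases, 250 before the start and 50 after it. Capitals mark GAGGAA, the letters of a PU.1-type site of myeloid genes, and TGCTGA, the half-site of MAF, searched on both strands, so that TTCCTC and TCAGCA are the same motifs on the other strand.
Mrc1, chr2:14229164-14229463, plus strand: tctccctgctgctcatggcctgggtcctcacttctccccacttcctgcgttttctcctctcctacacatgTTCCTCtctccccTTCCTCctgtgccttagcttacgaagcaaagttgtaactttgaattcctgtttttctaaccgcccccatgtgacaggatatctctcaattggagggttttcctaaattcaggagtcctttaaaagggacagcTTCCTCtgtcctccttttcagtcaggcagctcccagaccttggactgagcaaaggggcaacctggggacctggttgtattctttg
Pf4, chr5:90772185-90772484, plus strand: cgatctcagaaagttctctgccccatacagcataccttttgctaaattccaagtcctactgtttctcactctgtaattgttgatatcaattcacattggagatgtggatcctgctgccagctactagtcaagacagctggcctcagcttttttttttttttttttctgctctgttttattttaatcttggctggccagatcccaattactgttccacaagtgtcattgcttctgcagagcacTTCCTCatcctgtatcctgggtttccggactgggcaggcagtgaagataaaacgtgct
Stab1, chr14:31168592-31168891, minus strand: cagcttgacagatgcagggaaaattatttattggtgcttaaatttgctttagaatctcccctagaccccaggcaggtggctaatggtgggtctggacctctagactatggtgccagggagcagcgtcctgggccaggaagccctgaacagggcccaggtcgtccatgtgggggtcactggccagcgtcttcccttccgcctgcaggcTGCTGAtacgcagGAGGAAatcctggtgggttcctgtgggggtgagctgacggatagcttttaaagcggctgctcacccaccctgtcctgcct
Ccr2, chr9:124101933-124102232, plus strand: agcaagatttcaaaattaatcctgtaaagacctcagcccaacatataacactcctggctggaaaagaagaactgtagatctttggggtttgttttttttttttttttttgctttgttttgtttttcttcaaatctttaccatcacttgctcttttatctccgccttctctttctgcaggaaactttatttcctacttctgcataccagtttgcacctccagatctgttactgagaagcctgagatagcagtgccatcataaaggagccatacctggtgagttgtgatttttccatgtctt
The Mrc1 window held 3 matches to GAGGAA and the Pf4 window held 1, all on the other strand. The Stab1 window held 1 match to each motif, and the Ccr2 window held neither. Over all 32851 promoter windows of the table, 28.3% held GAGGAA and 19.5% held TGCTGA, so a match alone sets no gene apart, and the motifs shared 0 bases in the windows shown.

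Mrc1 Pf4 wells with WBRT held 1261 to 26955 counts (median 9465), against 1079 to 17796 (median 6890) in the other kept wells of that plate. Without WBRT, they held 1166 to 39214 counts (median 4756), against 1006 to 20138 (median 4000) in the other wells. The long noncoding RNA Kcnq1ot1 reached 14892 CPM in a single Mrc1 Pf4 well with WBRT and 284047 CPM in another kept well of that plate. Without WBRT these highest values were 12885 and 180174 CPM. The 384 well names are the same in all plates, and 0 kept wells had identical values. Counts were summed over the wells of a group and scaled to CPM, each gene's share of all counts of the group at 1 common depth, from 1631200 counts for the 161 wells with WBRT and 135833 for the 15 without, of which 1 well holds 39214. With 1 plate per group there was no test across samples. Intervals are 95% and cover counting error only, and a gene was called higher or lower when its ratio on the CPM + 5 scale passed 2-fold, among genes with at least 20 CPM in either group.

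Mrc1 Pf4 wells made up 61.5% of kept wells with WBRT (exact binomial interval 55.3 to 67.4%), against 6.41% without WBRT (3.63 to 10.4%). After each well was thinned to 1000 UMIs, the molecules counted once each, 14.5% of kept wells passed the gate with WBRT, against 2.99% without. Wells with WBRT held a median of 9 gate counts and up to 100.81, and 76 of 161 held 10 or more. Wells without WBRT held a median of 6 and up to 39.11, and 4 of 15 held 10 or more. Most wells with WBRT carried several gate genes: 78 carried 2 of the 4, 49 carried 3, 25 carried all 4 and 9 carried 1. Without WBRT, 4 wells carried 2, 4 carried 3, 1 carried all 4 and 6 carried 1.

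**Figure D1:**
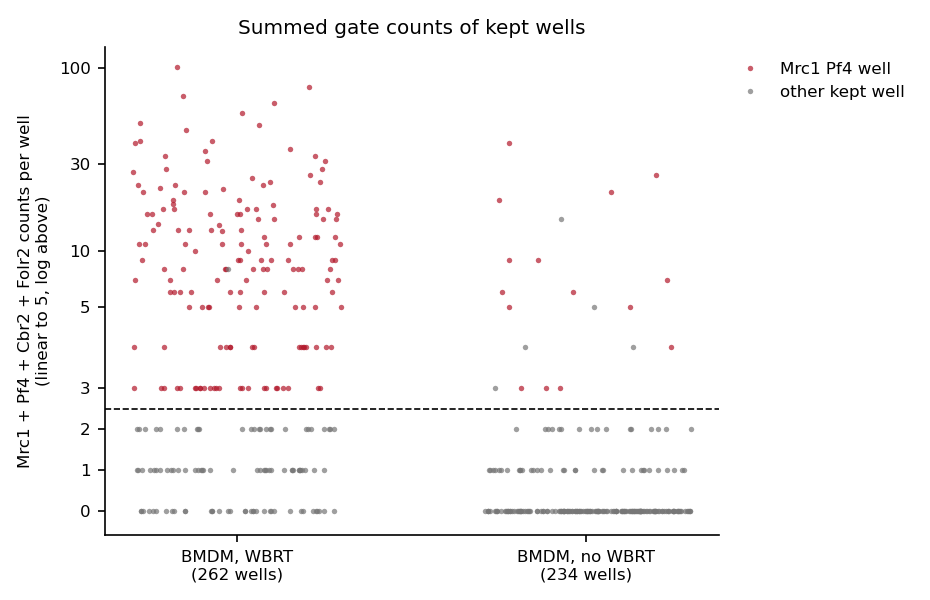
Summed counts of Mrc1, Pf4, Cbr2 and Folr2 per kept well (vertical axis, symmetrical log scale) in the BMDM plate with WBRT and the BMDM plate without WBRT; each point is 1 well, and the dashed line separates 2 from 3 counts; the 1 and 5 grey points above it were left out by the dendritic genes. With WBRT 36 wells held 0 gate counts and the highest held 100.81, whereas 164 wells held 0 without WBRT.

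Among the gate genes, Mrc1 was found in 89.4% of the Mrc1 Pf4 wells with WBRT (548 CPM) and in 26.7% of the other wells (62.0 CPM). Pf4 was found in 82.6% (579 CPM) against 25.7% (44.7 CPM). Cbr2 was found in 43.5% (149 CPM) against 13.9% (21.6 CPM), and Folr2 in 40.4% (110 CPM) against 8.91% (12.97 CPM). Without WBRT the gate rested more on Mrc1: 93.3% of the Mrc1 Pf4 wells carried it (966 CPM), 60% carried Pf4 (155 CPM), 26.7% Cbr2 and 20% Folr2. Pf4 is also the defining chemokine of platelets, and 0 of the 161 wells held 3 or more counts of 7 platelet and megakaryocyte genes. These genes summed to 12.3 CPM in Mrc1 Pf4 wells with WBRT and 11.5 CPM in the other wells, with Itga2b, Gp1bb, Gp5 and Gp6 at 0 in the Mrc1 Pf4 wells.

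The 25 wells with 3 gate counts with WBRT, against the 25 wells with 2 that passed every other rule, had 287 and 543 CPM of F13a1, 579 and 543 CPM of Stab1, 611 and 581 CPM of Ms4a7, 888 and 1126 CPM of Ccr2, and 10316 and 8936 CPM of Cd74. Their median depths were 7024 and 7010 counts. F13a1 was higher just outside the threshold, and Stab1, Ms4a7 and Gas6 (179 and 157 CPM) had overlapping intervals on either side of it, so the other kept wells include wells with much the same levels.

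The label was checked against genes the gate did not use. F13a1, the coagulation factor XIII A chain and a marker of these cells that the gate left out, had a lowest, median and highest CPM per well of 0, 324 and 3702 in Mrc1 Pf4 wells with WBRT, against 0, 0 and 4899 in the other wells. It was found in 116 of 161 wells (72.0%) against 37.6%, and in 4 of 19 dendritic-type wells (21.1%), whose median depth was 7397 counts. Pooled, F13a1 had 561 CPM against 258 CPM, 2.17-fold higher (1.85 to 2.57), and the ranges of single wells overlapped. Without WBRT it had 317 CPM in Mrc1 Pf4 wells and 42.4 CPM in the other wells, 7.48-fold higher (4.78 to 11.7), with 66.7% against 9.59% of wells. The macrophage receptor Csf1r was found in 98.8% of the Mrc1 Pf4 wells with WBRT, and Apoe and the complement gene C1qb in 100%. Apoe was also found in all 101 other wells and all 19 dendritic-type wells, so its share is no check of the label. The shares of Csf1r and C1qb in the other wells are not given here. Lyve1 and Cd163, which mark perivascular macrophages and were not gate genes, were nearly missing: 3 of 161 wells (1.86%) held Lyve1 and 4 (2.48%) held Cd163. Without WBRT, 1 of 15 wells held Lyve1 and 2 held Cd163. Not every well fits the name in full, since 6 of the 15 wells without WBRT held no Pf4.

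Stab1, the scavenger receptor stabilin-1, had a lowest, median and highest CPM of 0, 600 and 3869 in Mrc1 Pf4 wells with WBRT and 0, 89.6 and 6561 in the other wells. Pooled it was 749 CPM against 296 CPM, 2.53-fold higher (2.19 to 2.95), and 87.6% against 52.5% of wells held it. Without WBRT it was 457 CPM against 109 CPM, 4.18-fold higher (3.01 to 5.75). Most Mrc1 Pf4 wells on both plates thus carried it, and the single wells of both groups overlapped. Maf, a transcription factor of tissue macrophages, had 515 CPM against 225 CPM with WBRT, and 597 CPM against 161 CPM without WBRT, where all 15 Mrc1 Pf4 wells carried it. Gas6, the bridging ligand that lets the receptors Axl and Mertk bind dying cells, had a median of 223 CPM per well against 0, and 296 CPM against 90.8 CPM pooled, 3.26-fold higher (2.499 to 4.30). Without WBRT, Gas6 had 1019.7 CPM against 237 CPM. Fcrls, an Fc receptor-like gene of brain macrophages, had 733 CPM against 271 CPM with WBRT, 2.71-fold higher (2.32 to 3.17), and 420.2 CPM against 70.9 CPM without WBRT.

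**Figure D2:**
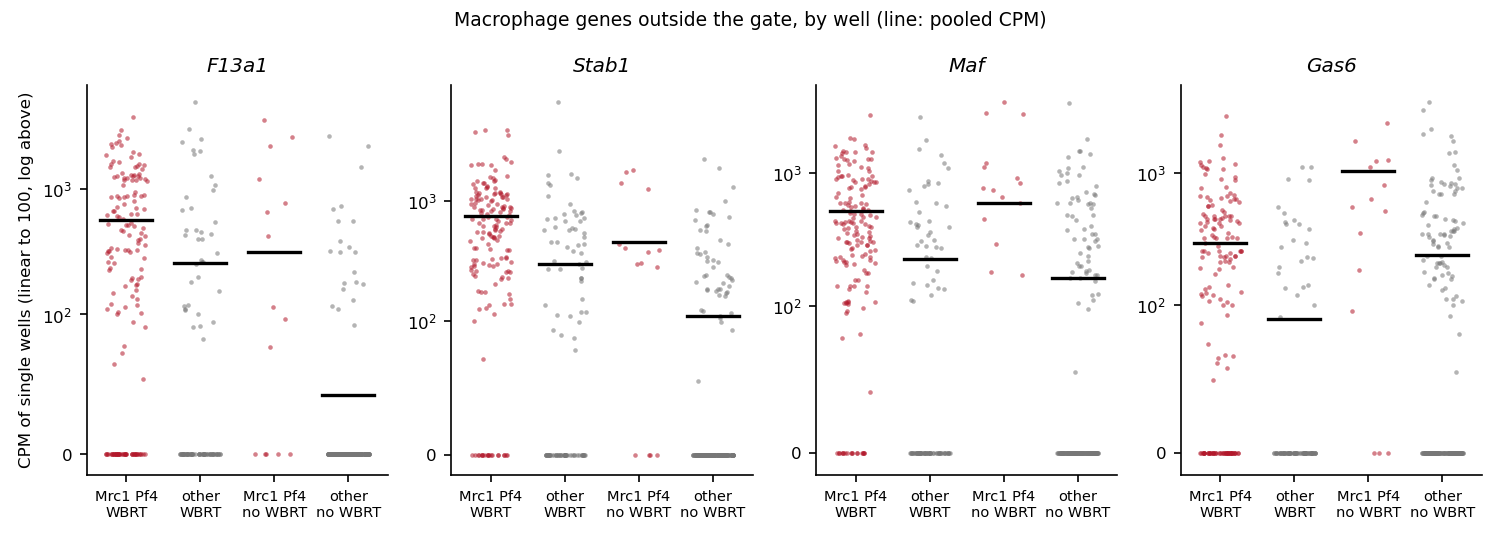
CPM per well of F13a1, Stab1, Maf and Gas6 in Mrc1 Pf4 wells and other kept wells of the BMDM plate with WBRT, then of the BMDM plate without WBRT; each point is 1 well and the line is the pooled CPM of the group. For F13a1 the pooled values were 561 and 258 CPM with WBRT, and 317 and 42.4 CPM without WBRT, and single wells of both groups reach down to 0.

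The other wells of a plate are a mixed reference, since wells left out by the dendritic genes are among them: 19 of 101 with WBRT and 99 of 219 without WBRT. Against only the 82 other wells with WBRT that passed these exclusions, the log2 ratio was 0.74 for F13a1, 0.94 for Stab1 and 0.79 for Maf, under the 2-fold call, while Gas6 (1.31) and Fcrls (1.10) stayed past it. Against the 120 such wells without WBRT, F13a1 (2.35), Stab1 (1.595), Maf (1.24), Gas6 (1.53) and Fcrls (1.95) all stayed past it. Gas6 and Fcrls are not particular to the gated wells. Microglia plate wells that did not pass the gate had 462 CPM of Gas6 with WBRT and 423 CPM without. They had 381 CPM of Fcrls with WBRT and 103 CPM without. The Mrc1 Pf4 wells with WBRT had 296 CPM of Gas6 and 733 CPM of Fcrls.

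Across all genes, 148 of 6771 genes tested with WBRT were called higher in Mrc1 Pf4 wells (2.19%) and 275 lower (4.06%), with a median log2 ratio of 0.02. Without WBRT the calls were far more frequent, 870 of 7181 higher (12.1%) and 1240 lower (17.3%), in a group of 15 wells, with a median of 0.03. Of the 24 border macrophage genes, 16 were tested with WBRT, and 7 were called higher and 2 lower, with a median log2 ratio of 0.93. Without WBRT 18 were tested, and 10 were called higher and 3 lower, with a median of 1.16. The higher genes with WBRT were F13a1, Stab1, Maf, Gas6, the lectin Siglec1 (160 CPM against 73.5), the endothelin receptor Ednrb (39.9 CPM against 10.1) and the chemokine Ccl8. Ccl8, a ligand that draws monocytes, had 188 CPM against 37.5 CPM, 5.01-fold higher (3.35 to 7.79), but only 27.95% of Mrc1 Pf4 wells held it and 1 well held 25.1% of its counts. The 2 lower genes, Clec10a (28.8 CPM against 114) and the phosphatidylserine receptor Timd4 (25.2 CPM against 121), turned round against the other wells that passed the exclusions, with log2 ratios of 1.22 and 0.87.

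Ms4a7, a membrane gene of border and monocyte-derived brain macrophages, stood differently to the other wells on each plate. With WBRT it had 0, 635 and 4186 CPM (lowest, median and highest) in Mrc1 Pf4 wells and 0, 119 and 6145 CPM in the other wells, and 896 CPM against 483 CPM pooled. Without WBRT only 3 of the 15 Mrc1 Pf4 wells held it, at 58.9 CPM against 144 CPM in the other wells. After thinning, that ratio without WBRT had the other sign (0.22), with Ms4a7 in only 1 of the 15 Mrc1 Pf4 wells. The difference between the plates was not tested.

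Genes of uptake and iron, lipid and lysosomal handling were on the high side in Mrc1 Pf4 wells. Of 21 scavenging and efferocytosis genes tested (23 listed), 3 were called higher and 1 lower with WBRT (median 0.45), and 9 higher and 4 lower without WBRT (median 0.78). All 12 iron and heme genes tested were above 0 with WBRT and 0 passed 2-fold (median 0.65), and 7 of 14 were called higher and 1 lower without WBRT (median 0.96). Of the 19 lysosomal genes, 18 were above 0 with WBRT and 0 passed 2-fold (median 0.54), against 4 called higher without WBRT (median 0.80). Complement genes had medians of 0.51 with WBRT and 0.68 without WBRT. Set only against wells that passed the exclusions, these 4 medians with WBRT were 0.34, 0.32, 0.28 and 0.20 in the same order, and without WBRT 0.06, 0.59, 0.23 and 0.23.

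Hmox1, the enzyme that breaks down heme, ran from 0 through a median of 218 to 20108 CPM in single Mrc1 Pf4 wells with WBRT, and from 0 through 115 to 19620 CPM in the other wells. Pooled it was 1179 CPM against 775 CPM, and without WBRT 2898 CPM against 787 CPM, where 1 well held 79.1% of the counts. Without the highest well of each group the log2 ratio without WBRT was 0.40, against 1.87 with it. Lpl, lipoprotein lipase, had 349 CPM against 144 CPM with WBRT, 2.42-fold higher (1.95 to 3.02), and 702 CPM against 289 CPM without WBRT. Fabp5, a fatty acid carrier, had 583 CPM against 244 CPM with WBRT, and 1070.1 CPM against 299.9 CPM without WBRT, where 1 well held 71.8% of the counts. Apoe, the main apolipoprotein of brain macrophages, was 40442 CPM against 26811 CPM with WBRT, and 38894 CPM against 21597 CPM without WBRT, and every well of each group carried it. The dendritic-type wells, which are part of the other wells here, were low in both with WBRT: 5.87 CPM of Lpl and 4005 CPM of Apoe. Ratios of Lpl, Fabp5 and Apoe without those wells are not given here.

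Mt2, a metallothionein, had 63.2 CPM in Mrc1 Pf4 wells with WBRT against 7.21 CPM, 8.77-fold higher (3.64 to 27.6), and Gpx3, a secreted glutathione peroxidase, had 79.7 CPM against 20.2 CPM, 3.95-fold higher (2.27 to 7.43). Apoc1, an apolipoprotein next to Apoe in function, had 79.8 CPM against 21.6 CPM, 3.69-fold higher (2.15 to 6.78). Each was held by a minority of the wells: 23.6%, 32.3% and 27.3% of Mrc1 Pf4 wells.

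Chemokine ligands were partly higher. Of 14 tested with WBRT 4 were called higher and 1 lower (median 0.45), and of 15 without WBRT 6 were higher and 4 lower (median 0.30). These medians were 0.07 and -0.43 against wells that passed the exclusions. Ccl2, the main ligand of Ccr2, had 171 CPM against 76.4 CPM with WBRT, 2.23-fold higher (1.66 to 3.06). This reference includes the 19 dendritic-type wells, of which 1 held Ccl2 (5.87 CPM), and the ratio without them is not given here. Without WBRT Ccl2 had 1102 CPM against 160 CPM, 6.91-fold higher (5.51 to 8.70), and 66.7% against 37.9% of wells held it. Removing the highest well of each group left a log2 ratio of 2.201 without WBRT. Ccl3, an inflammatory chemokine, had 872 CPM against 392 CPM with WBRT and 622 CPM against 475 CPM without WBRT.

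Monocyte genes were lower. With WBRT 0 of 19 tested (22 listed) were called higher and 8 lower, with a median of -0.54, and without WBRT 1 of 20 was higher and 14 lower, with a median of -1.96. The dendritic-type wells in this reference carried high levels of the list, which summed to 7252 CPM in them with WBRT and 6762 CPM without. Over all other wells it summed to 5769 and 5069 CPM. These medians are against all other wells, dendritic-type wells included, and medians without those wells are not given here. Plac8, a small protein of blood monocytes, had 134 CPM in Mrc1 Pf4 wells with WBRT and 606 CPM in the other wells, 4.53-fold lower (3.85 to 5.37). Without WBRT it had 133 CPM against 852 CPM, 6.43-fold lower (4.05 to 10.9). S100a4, a calcium-binding protein of motile cells, had 33.1 CPM against 193 CPM with WBRT and 14.7 CPM (2 counts) against 321 CPM without WBRT. Both stayed 2-fold lower against wells that passed the exclusions, with log2 ratios of -1.38 and -1.10 with WBRT. Ccr2 was lower in level. Before thinning, 127 of 161 Mrc1 Pf4 wells with WBRT (78.9%) held it, at 0, 598 and 3951 CPM (lowest, median and highest). Of the other wells, 77.2% held it, at 0, 910 and 6119 CPM. Pooled, Ccr2 had 937 CPM against 1307 CPM, a log2 ratio of -0.48. Without WBRT it had 125 CPM against 468 CPM, 3.74-fold lower (2.31 to 6.47), while 8 of 15 wells (53.3%) held it, against 43.4% of the other wells.

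Antigen presentation genes of MHC class II were lower in Mrc1 Pf4 wells. All 7 tested with WBRT were below 0, and 5 were called lower, with a median of -1.09. Without WBRT 6 of 7 were called lower, with a median of -2.01. Cd74, the chaperone of class II molecules, had 0, 2889 and 31975 CPM (lowest, median and highest) in Mrc1 Pf4 wells with WBRT and 0, 12129 and 38364 CPM in the other wells. Pooled, Cd74 had 7031 CPM against 14596 CPM with WBRT, and 2073 CPM against 8391 CPM without WBRT. H2-Aa, a class II chain, had 5349 CPM against 12584 CPM with WBRT and 3452 CPM against 11139 CPM without WBRT. The dendritic-type wells among the other wells carried high class II levels, with a median of 25477 CPM of Cd74. Against wells that passed the exclusions, the class II median was -0.70 with WBRT and -1.15 without WBRT, and Cd74 with WBRT (-0.70) was no longer past 2-fold.

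Dendritic cell genes, which the exclusions bear on, had 8 of 14 tested called lower and 1 higher with WBRT, and 14 of 15 lower without WBRT. Their median with WBRT was -1.46 against all other wells and -0.24 against the wells that passed the exclusions. The genes lowest by fold with WBRT included the integrin chain Itgb7 (3.68 CPM against 101), the aspartic protease Napsa (16.6 CPM against 173), the peptidase Dpp4 (6.13 CPM against 86.5) and the decoy receptor Il1r2 (36.2 CPM against 294). Ifitm1, an interferon-induced membrane protein, had 159 CPM against 1225 CPM, 7.71-fold lower (6.71 to 8.90). All 5 were still past 2-fold against the wells that passed the exclusions, with log2 ratios between -2.25 and -1.42.

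**Figure D3:**
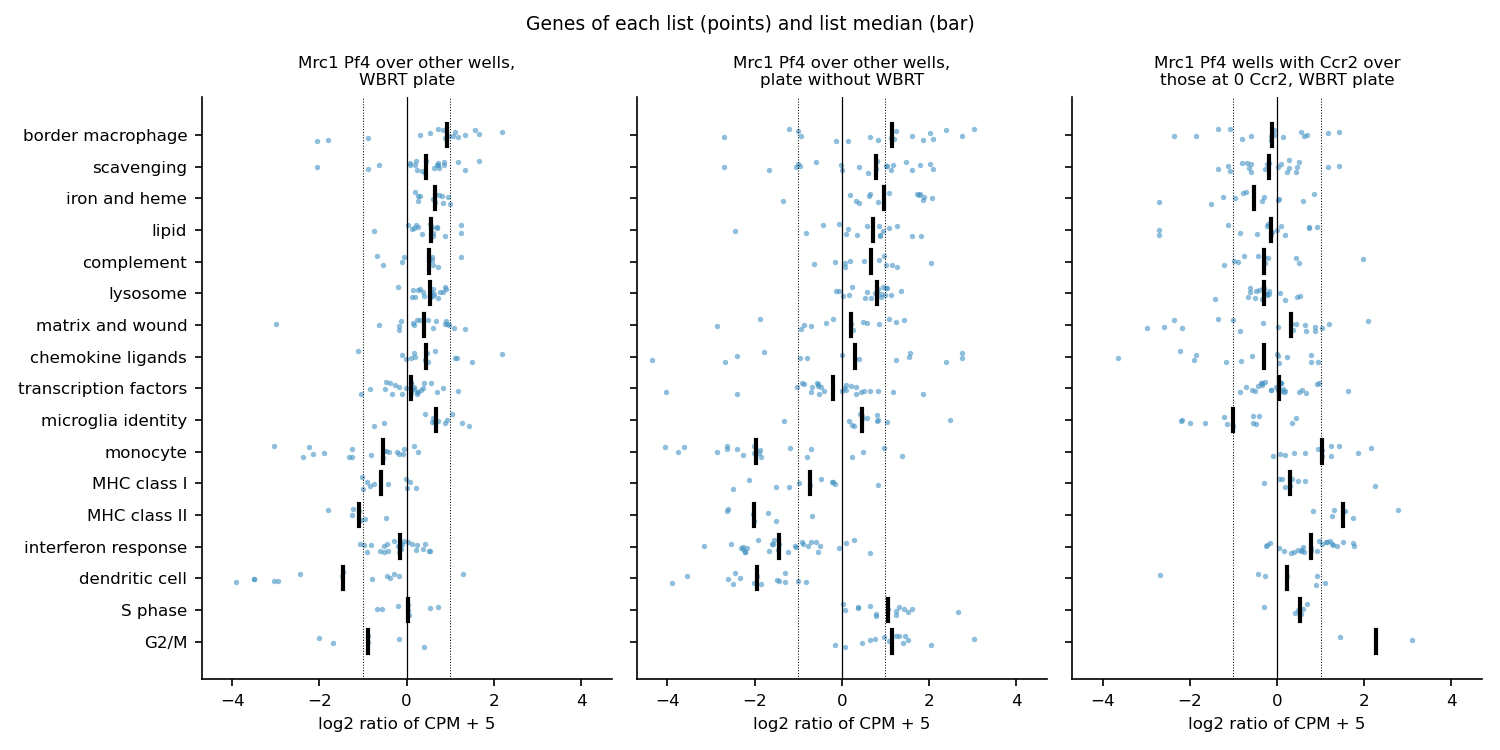
Log2 ratio of CPM + 5 for each tested gene of the lists (points) with the list median (bar), in 3 panels: Mrc1 Pf4 wells over other kept wells with WBRT, the same without WBRT, and Mrc1 Pf4 wells with Ccr2 over those without Ccr2; dotted lines mark 2-fold. Border macrophage genes have medians of 0.93 and 1.16 and class II genes -1.09 and -2.01 in the first panels, and class II genes 1.51 in the last.

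Microglia identity genes, a list that holds Fcrls as well, were mostly a little higher in Mrc1 Pf4 wells. Of 12 tested with WBRT 3 were called higher and 0 lower (median 0.67), and the median was 0.29 against wells that passed the exclusions. Tmem119 was found in 52.8% of Mrc1 Pf4 wells with WBRT against 32.7% of the other wells, and P2ry12 in 46.6% against 20.8%. At least 1 count of P2ry12, Sall1, Tmem119 or Siglech was held by 111 of 161 wells (68.9%) against 50 of 101 (49.5%). After thinning to 1000 UMIs the shares were 24.2% and 19.8%. Among the Mrc1 Pf4 wells with Ccr2, 91 of 127 (71.7%) held such a count, and 5 of the 19 dendritic-type wells (26.3%) did, at median depths of 9955 and 7397 counts. The part of free RNA in these counts was not tested.

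Interferon genes were counted the same way on both plates, and the difference between the plates was not tested. With WBRT 0 of 26 were called higher and 1 lower (median -0.15), and without WBRT 0 of 29 were higher and 18 lower (median -1.45). The references are unlike, since dendritic-type wells were 19 of the 101 other wells with WBRT and 99 of the 219 without. Interferon medians without those wells are not given here. Irf7, a transcription factor of the interferon response, had 136 CPM against 209 CPM with WBRT, and 169 CPM against 522 CPM without WBRT. Cdkn1a, the p53 target p21 that radiation induces, had 1168 CPM in Mrc1 Pf4 wells and 1177 CPM in the other wells with WBRT, and 974 CPM against 619 CPM without WBRT. Of 12 p53 target genes tested, 1 was called higher and 1 lower with WBRT (median 0.08), and 2 higher and 1 lower without WBRT (median 0.16).

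Within the plate with WBRT, wells with more gate counts held more of several genes outside the gate. Wells with 3 to 5 gate counts (51 wells), 6 to 11 (44 wells) and 12 or more (66 wells) had 278, 445 and 749 CPM of F13a1. Stab1 had 470.3, 615 and 945 CPM over the same steps, and Fcrls 441, 610.2 and 930.0 CPM. The Poisson intervals of neighbouring steps did not overlap for F13a1 or Fcrls, nor for the upper steps of Stab1. Ms4a7 had 666, 760 and 1071 CPM, and Gas6 187, 291 and 347 CPM, with intervals that overlap between some neighbours. Cd74 went the other way, with 11380, 7237 and 4954 CPM, and Ccr2 had 1167, 1056 and 771 CPM while the share of wells with Ccr2 was 80.4%, 79.5% and 77.3%. Median depth over the steps was 6920, 9529 and 11846 counts, so the steps differ in depth as well.

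**Figure D4:**
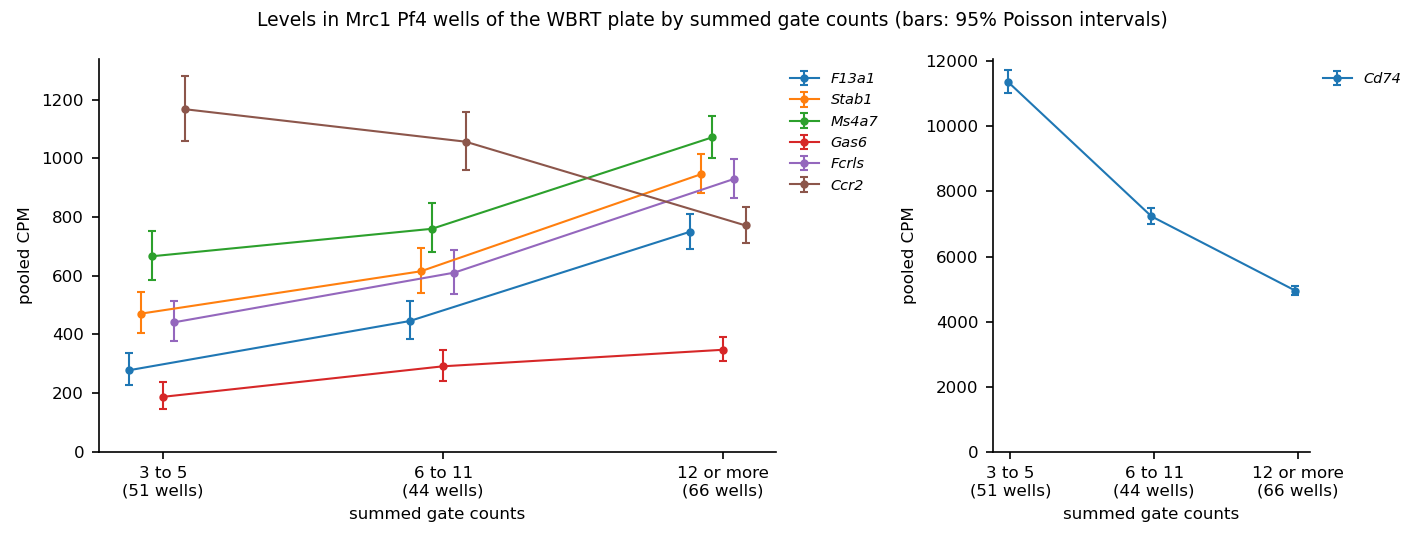
Pooled CPM with 95% Poisson intervals of F13a1, Stab1, Ms4a7, Gas6, Fcrls and Ccr2, and of Cd74, in Mrc1 Pf4 wells with WBRT by summed gate counts: 3 to 5 (51 wells), 6 to 11 (44 wells) and 12 or more (66 wells). F13a1 lies at 278, 445 and 749 CPM and Cd74 at 11380, 7237 and 4954 CPM.

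The Mrc1 Pf4 wells with WBRT were then split by Ccr2, into 127 wells with at least 1 count and 34 wells with 0. Ccr2 itself chose the groups and is not read. The wells with Ccr2 had a median depth of 9955 counts against 6823 in those without, and 15 of 127 against 14 of 34 held under 1000 CPM of the nuclear RNA Malat1. Of 6675 genes tested 474 were higher in wells with Ccr2 (7.1%) and 296 lower (4.43%), with a median log2 ratio of 0.06.

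Both sides carried the border macrophage genes. Of 16 tested, 2 were higher and 4 lower in wells with Ccr2, with a median of -0.11. F13a1 had 551 CPM in wells with Ccr2 and 611 CPM in wells without, lower by 1.11-fold with an interval that includes 1 (0.927 to 1.31). Maf had 506 CPM against 561 CPM, and Stab1 692 CPM against 1045 CPM. Both Stab1 and F13a1 were found in most wells of each side, 86.6% against 91.2% and 74.0% against 64.7%. Igf1, a growth factor of mature macrophages, was lower in wells with Ccr2: 0, 0 and 2210.3 CPM (lowest, median and highest) against 0, 355 and 2304 CPM, and 27.6% against 70.6% of wells. Pooled, Igf1 had 89.2 CPM against 477 CPM, 5.34-fold lower (4.13 to 6.91).

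Class II and monocyte genes were higher in wells with Ccr2. Of 7 class II genes 6 were called higher and 0 lower (median 1.51). Cd74 had 0, 5067 and 31975 CPM in wells with Ccr2 and 0, 715 and 15026 CPM in wells without, and 7923 CPM against 2381 CPM pooled, 3.33-fold higher (3.07 to 3.61), where 1 well without Ccr2 held 54.0% of that side's counts. Of 13 monocyte genes tested besides Ccr2, 7 were higher and 0 lower (median 1.02). Plac8 had 154 CPM against 30.5 CPM, 5.04-fold higher (2.51 to 11.8). Tgfbi, a matrix protein of monocyte-derived macrophages, had a median of 1084 CPM per well against 198 CPM, and 1468 CPM against 339 CPM pooled, 4.33-fold higher (3.501 to 5.42). Il1rn, the antagonist of the interleukin-1 receptor, had 344 CPM against 30.5 CPM, 11.3-fold higher (5.68 to 26.3), and 64.6% against 20.6% of wells held it. Of 26 interferon genes 10 were higher and 0 lower (median 0.77).

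Of 12 iron and heme genes 0 were higher and 3 lower in wells with Ccr2 (median -0.53), of 16 lipid genes 0 were higher and 3 lower (median -0.14), and of 19 lysosomal genes 0 were higher and 1 lower (median -0.31). The lipid and lysosomal counts of lower genes are small, with 5 and 4 genes above 0. Microglia identity genes moved with the split: 0 of 13 were higher and 6 lower (median -0.999), and the list summed to 4560.1 CPM in wells with Ccr2 against 8189 CPM in wells without. Their part in the other differences was not tested. Slc40a1, the iron exporter ferroportin, had 79.7 CPM in wells with Ccr2 and 546 CPM in wells without, 6.84-fold lower (5.29 to 8.86), and 22.05% against 58.8% of wells held it. Hmox1 had 0, 176 and 16052 CPM against 0, 829 and 20108 CPM, and 964 CPM against 2300.5 CPM pooled. Lpl had 182 CPM against 1219.95 CPM, 6.71-fold lower (5.66 to 7.94), with 48.1% of the counts of the wells with Ccr2 in 1 well. Ctsd, a lysosomal protease, had 3768 CPM against 10042 CPM. Pmp22, a membrane protein, and Mt2 were lower by 6.98-fold (5.00 to 9.78) and 7.58-fold (5.03 to 11.5). Ccl2 had 105 CPM against 512 CPM, and Ccl8 130.04 CPM against 488 CPM.

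Which wells count as having Ccr2 depends in part on how deeply a well was read. When it was made on wells thinned to 1000 UMIs, 74 wells had Ccr2 and 87 had not. Il1rn then had a log2 ratio of 0.26, against 3.30 in the split as made, Irf7 had 0.12 against 1.76, and the interferon median was 0.12 against 0.77. Cd74 (1.32), Tgfbi (1.15), Plac8 (2.16), Igf1 (-2.15), Slc40a1 (-2.77), Lpl (-3.63) and Ccl2 (-1.87) stayed past 2-fold. Thinning only set the sides here, and the ratios use all counts of the wells. The 87 wells include wells that held Ccr2 before thinning. With the sides mixed in this way, the smaller ratios cannot show what part depth had in the split as made. For the split as made, shares after thinning to 1000 UMIs compare wells at 1 depth. Il1rn was then found in 33 of 127 wells with Ccr2 (26.0%) and 0 of 34 without (interval 0 to 10.3%). Igf1 was found in 2.36% against 38.2%, and Slc40a1 in 6.30% against 41.2%. Without the wells under 1000 CPM of Malat1, Hmox1 had -0.14, against -1.25, and Slc40a1 had -1.13, against -2.70.

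**Figure D5:**
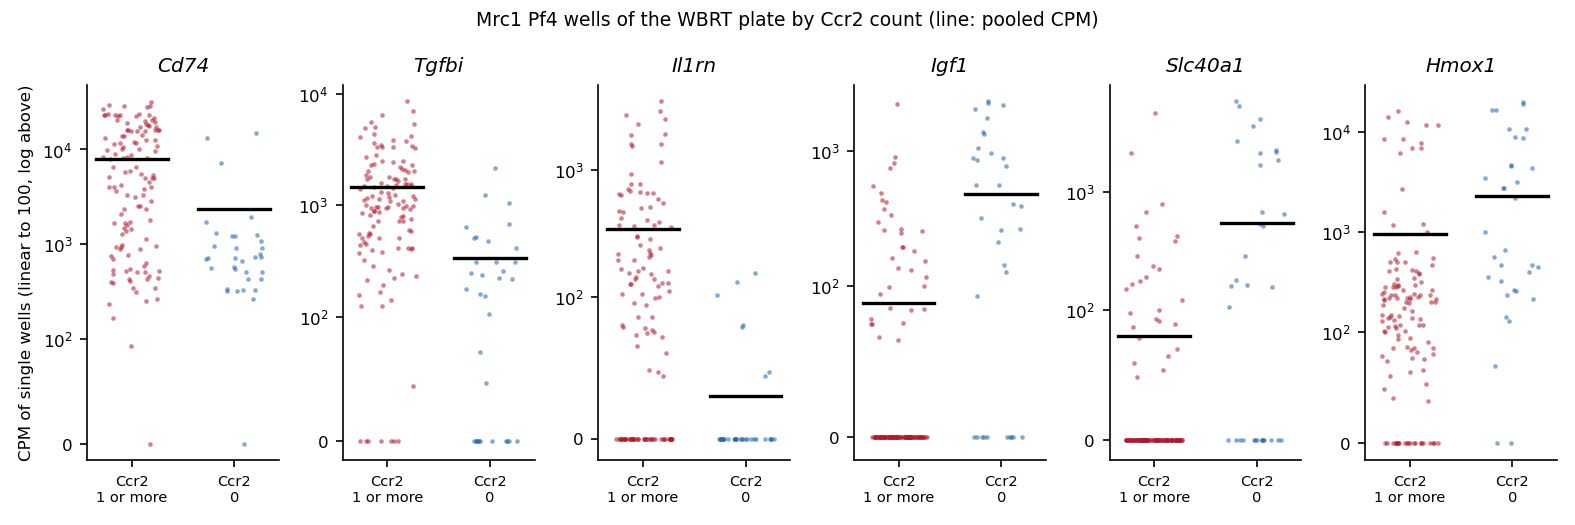
CPM per well of Cd74, Tgfbi, Il1rn, Igf1, Slc40a1 and Hmox1 in the 127 Mrc1 Pf4 wells with Ccr2 and the 34 without it, BMDM plate with WBRT; each point is 1 well and the line is the pooled CPM. Cd74 lies at 7923 and 2381 CPM and Slc40a1 at 79.7 and 546 CPM, with single wells of both sides overlapping.

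A narrower comparison with WBRT set all 161 Mrc1 Pf4 wells against the 18 wells that carried Ccr2 and no gate gene, with median depths of 9465 and 6366 counts. The groups differ in quality as well. The long noncoding RNA Kcnq1ot1 reached 14892 CPM in a single well of the 161 and 148916 CPM in 1 of the 18. Under 1000 CPM of Malat1 was held by 29 of the 161 and 6 of the 18. Of 6816 genes tested, 858 were higher in Mrc1 Pf4 wells (12.6%) and 706 lower (10.4%). Of 15 border macrophage genes 12 were higher and 0 lower (median 1.46), of 14 chemokine ligands 10 were higher and 0 lower (median 1.75), of 15 monocyte genes 1 was higher and 8 lower (median -1.13), and of 7 class II genes 6 were lower (median -1.36). Microglia identity genes moved the same way as the border macrophage genes, with 6 of 12 higher and 0 lower (median 1.01) and summed levels of 5144 CPM against 2951 CPM, and their part in the result was not tested. Gas6 had 296 CPM in Mrc1 Pf4 wells and 18.3 CPM (2 counts) in these wells, 16.1-fold higher (4.44 to 134). Igf1 had 152 CPM and was at 0 in these wells, at least 5.52-fold higher against a floor of 3 counts over the group. Il1r2 went the other way, with 36.2 CPM against 330 CPM, 9.12-fold lower (5.85 to 14.0).

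Between the plates, 161 Mrc1 Pf4 wells with WBRT were set beside 15 without WBRT. Of 7142 genes tested 1078 were higher with WBRT (15.1%) and 765 lower (10.7%), with a median of 0.02. Identity genes were present on both plates: F13a1 had 561 CPM with WBRT and 317 CPM without, Stab1 749 and 457 CPM, Maf 515 and 597 CPM, and Csf1r 2098 and 2177 CPM. The border macrophage list had 7 of 18 genes higher and 4 lower (median 0.38), and the monocyte list 7 of 17 higher and 2 lower (median 0.95).

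More matrix and wound genes were called higher than lower with WBRT. Of 17 tested 11 were higher and 2 lower, with a median of 1.30, which was 0.47 when every well was weighted alike. The listed genes summed to 7798 CPM with WBRT against 10515 CPM without, with Spp1, given below, among them. Fn1, fibronectin, had 807 CPM with WBRT against 133 CPM in wells without it, a ratio of 6.08 (3.84 to 10.3), and 72.0% against 20% of wells held it. Thbs1, thrombospondin-1, had 187 CPM against 14.7 CPM (2 counts), 12.7-fold higher (3.47 to 105). Tgfbi had 1286 CPM against 435 CPM, and in the other wells 2003 CPM with WBRT against 499.8 CPM without. Ms4a7 had 896 CPM against 58.9 CPM, 15.2-fold higher (7.70 to 35.3), and in the other wells it was found in 58.4% with WBRT against 19.2% without. Cd93, a lectin-like receptor of myeloid cells, had 669 CPM against 95.7 CPM, and 411 CPM against 61.1 CPM in the other wells. Ccr2 had 937 CPM against 125 CPM, and 1307 CPM against 468 CPM in the other wells. Emp1, a membrane protein, was found in 88 of 161 wells at 210.5 CPM with WBRT and in 0 of 15 wells without, at least 9.53-fold higher against a floor of 3 counts over the group. Emp1 was also found in 32.7% of the other wells with WBRT, against 7.76% of those without. Gdf3, a growth factor of the TGF-beta family, and Anxa1, annexin A1, were found in 53 and 61 wells with WBRT and in 0 without, at least 6.25-fold and 4.36-fold higher. Among the other wells, 21.8% held Gdf3 with WBRT against 2.28% without, and 36.6% held Anxa1 against 23.3%. The differences of Tgfbi, Cd93, Ccr2 and Gdf3 between the plates were thus not limited to the Mrc1 Pf4 wells. Fn1 and Thbs1 are given for the Mrc1 Pf4 wells only, so whether the other wells differ too is not shown.

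Of 15 chemokine ligands 4 were higher and 3 lower with WBRT (median 0.12), and of 12 complement genes 1 was higher and 1 lower (median -0.23). Ccl5, a chemokine of activated T cells and macrophages, was found in 3 of 161 wells with WBRT (1.84 CPM) and 9 of 15 without (147 CPM), 80.1-fold lower (23.7 to 421). In the other wells, Ccl5 was found in 3.96% with WBRT against 50.2% without, so its difference between the plates was not limited to the Mrc1 Pf4 wells. C4b, a complement component whose reads may be shared with its near-identical copy, had 6.74 CPM against 214 CPM, 31.7-fold lower (15.4 to 70.2), and the surface protein Ly6a 10.4 CPM against 133 CPM, 12.7-fold lower (6.18 to 26.3). C4b was also lower with WBRT in the other wells, at 1.44 CPM against 48.3 CPM. The interferon list as a whole had 3 of 28 genes higher and 5 lower, with a median of -0.14. Gas6 had 296 CPM against 1019.7 CPM, and Ccl2 171 CPM against 1102 CPM. The other wells had 90.8 CPM of Gas6 with WBRT against 237 CPM without, and 76.4 CPM of Ccl2 against 160 CPM. Spp1, osteopontin, had 2212 CPM against 7077 CPM. Ly6a and Spp1 are given for the Mrc1 Pf4 wells only, so whether the other wells differ too is not shown. Genes of S phase had 0 of 16 higher and 9 lower (median -1.23), and genes of G2 and M phase 0 of 14 higher and 9 lower (median -1.72). For Top2a, 1 of the 15 wells without WBRT held 72.3% of the counts. Hmox1 (-1.29) had the other sign without the deepest well without WBRT (0.47).

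The same gate passed 18 of 151 kept wells of the microglia plate with WBRT (11.9%, interval 7.22 to 18.2%) and 6 of 157 of the one without WBRT (3.82%, 1.42 to 8.13%). Ccr2 was held by 127 of 161 Mrc1 Pf4 wells of the BMDM plate with WBRT, against 1 of 18 and 0 of 6 of these microglia wells. With WBRT, Cd74 was found in 98.8% of the BMDM Mrc1 Pf4 wells against 22.2% of the microglia wells, and F13a1 in 72.0% against 33.3%. Gas6 was found in 68.3% against 77.8%. After thinning to 1000 UMIs the shares were 46.0% against 5.56% for Ccr2, 74.5% against 11.1% for Cd74, 34.8% against 11.1% for F13a1 and 26.7% against 55.6% for Gas6. The plates differ in sort and in depth, with medians of 9465 and 3211 counts in these wells, so the values are set side by side only.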

How the data were processed

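Single cells of 4 libraries, 1 per group, were sorted into 384-well plates, snap frozen and processed by a service laboratory per the labels' protocols. The genome build is GRCm38 per the submitters' processing notes, while for the aligner, the counter and the annotation a name is not given in the sources used here. Per the files' values, the authors deposited expected counts: 100.0% of the nonzero values matched, within 0.0051, a whole number of molecular identifiers corrected for collisions among 4096 possible ones. They were used as deposited, without rounding.

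Here, wells of at least 1000 counts and under 50% ERCC were kept, with ERCC and mitochondrial rows outside all totals. Counts were summed over wells and compared as log2 ratios of CPM + 5 among genes of at least 20 CPM in 1 group, with exact Poisson, exact conditional and Clopper-Pearson intervals at 95%. As every group is a single library, differences carry no test, and intervals cover counting error only. Shares were also computed after thinning to 1000 UMIs. No doublet caller was run, since wells were sorted singly. The interval and ratio code was tested on simulated data.

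The gate, the Ccr2 split and the gene lists (507 symbols, 36 not found, 7 matched by synonym) were chosen with earlier results of these data known. Named genes were the 12 highest and 12 lowest by log2 ratio per comparison with at least 50 CPM and 20% of wells in the higher group and intervals that do not overlap, up to 6 members per list, the identity lists in full, and further list genes named after their values were seen. Genes with near-identical copies, such as Fabp5 and C4b, are uncertain. Python 3.11.15, numpy 2.4.6, pandas 2.3.3, scipy 1.17.1 and matplotlib 3.10.9 were used, and R 4.3.3 with edgeR 4.0.16 for TMM factors in an alternative.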

Additional observations from a re-analysis of the deposited data

Results flagged for a closer look

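Genes of G2 and M phase had opposite signs on the 2 plates: the median log2 ratio of Mrc1 Pf4 wells over other wells was -0.89 with WBRT and 1.16 without WBRT. Hmgb2, a chromatin protein of dividing cells, had -1.17 with WBRT and 1.01 without WBRT. Neither difference between the plates was tested. Against only the other wells that passed the dendritic exclusions the G2 and M median with WBRT was 0.33, so its negative sign was not seen with that comparison. Of the 18 listed genes, 6 were tested with WBRT and 14 without, so the 2 medians rest on different genes.

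In the microglia plates, 18 wells with WBRT and 6 wells without WBRT passed the same gate. These plates entered no fold change above and were only set beside the BMDM wells by shares and by the CPM of Gas6 and Fcrls.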

How the results depend on the processing

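Across the alternatives, 5013 of 5746 gene values and 1074 of 1358 list medians stayed close to the value reported, 696 and 277 moved, and 37 and 7 changed sign. For each value that changed sign or moved, the cause was not tested. The share of Mrc1 Pf4 wells was 71.0% with WBRT and 11.97% without at 2 gate counts, 45.8% with WBRT at 5, and 14.5% and 2.99% after thinning. Counts of genes past 2-fold are given for Mrc1 Pf4 over other wells with WBRT, the same without WBRT, the Ccr2 split, and WBRT over no WBRT. They were 170, 1083, 259 and 929 at CPM + 20, 749, 3531, 1620 and 3248 at a minimum of 5 CPM, 104, 485, 134 and 326 at 100 CPM, and 1795, 4693, 3570 and 4373 after thinning. Against Ccr2-positive wells with no gate gene they were 1565 with WBRT and 3378 without, both with Ccr2 itself among the genes tested, which the 858 higher and 706 lower genes given above with WBRT leave out. Leaving out wells with 3 or more microglia identity counts gave 717 with WBRT and 1525 in the Ccr2 split, which had 1229 with wells weighted alike and 309 when split after thinning.

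With WBRT the sign changed for Ciita (0.061) and Serpinb6a (-0.31) after thinning, for the G2 and M median without the top well (0.12) and against wells past the exclusions (0.33), for Clec10a (1.22) and Timd4 (0.87) against wells past the exclusions, and for Clec10a (2.76), Hp (0.48) and Timd4 (1.09) against Ccr2-positive wells. Without WBRT it changed for Cd163 (-0.30), Lyve1 (-0.30) and Igf1 (-0.38) at 3000 counts, for Adamts1 (-2.22), Cd36 (0.50) and Ms4a7 (0.22) after thinning, for the heat shock median (-0.058) and Hp (-0.15) without the top well, for Hp without microglia-count wells (-0.28), and for Hp (-0.44) and Slc40a1 (2.78) against Ccr2-positive wells. In the Ccr2 split it changed for the S phase median with wells alike (-0.15) and after thinning (-0.73), for Arhgef10l (-0.27) and Siglech (1.36) after thinning, and for the cytokine median without microglia-count wells (0.31) and split after thinning (0.053). For WBRT over no WBRT it changed for Cd163 (1.25) and Lyve1 (0.17) at 3000 counts, for Clec4n (-0.47), Itgal (-0.27) and Hmox1 (0.63) with wells alike, and for Clec4n (-0.66), Itgal (-1.04), Igf1 (-0.36), Sall1 (1.80), Whrn (1.16), Zfp941 (1.80) and Hmox1 (0.80) after thinning. It also changed for Hmox1 (0.32), Hp (0.42) and Lyve1 (0.32) without the top well, for Hmox1 (0.56) and Sall1 (0.28) without microglia-count wells, and for Hmox1 (0.47) without the deepest well. Some values after thinning rest on very few wells. Siglech was then held by 1 of 127 wells with Ccr2 and 0 of 34 without. Sall1 was held by 2 of 161 wells with WBRT and 0 of 15 without.

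No paired analysis was possible because each group is 1 plate and the labels give no shared replicate numbers to test. Depth limits the small groups: 3 counts come to 1.84 CPM in the 161 wells with WBRT and 22.1 CPM in the 15 without, to 27.5 CPM in the 18 Ccr2-positive wells with no gate gene, and to 40.4 and 66.4 CPM in the 18 and 6 microglia plate wells past the gate.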
